A study of Mus musculus with 24 samples.

Results

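Hsf4, Maf, Mafg, Sox1, Prox1 and Gata3 are transcription factor genes that were chosen by name for their known part in lens fiber differentiation. All 6 are among the 12611 genes counted by total RNA sequencing of mouse lenses, and all 6 are among the 12427 genes that had enough counts to be tested. Lens fiber cells make up the bulk of the lens: they arise from the lens epithelium, stop dividing, elongate, fill with crystallins and lose their nuclei. Fiber and epithelium were separated by microdissection from lenses of CD1 mice, an outbred albino stock, and the labels name no engineered allele and no treatment. The 8 groups were fiber and epithelium from embryos at E14.5, then E16.5, then E18.5 (days of gestation) and from newborns at P0.5 (days after birth). Each group had 3 biological replicates, which makes 12 fiber and 12 epithelium libraries. The sources used here do not say whether a replicate pools several animals.

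The factors belong to several protein families with different modes of action. Hsf4 is a heat shock factor, whose mutation causes cataract in mice and in humans. Maf, a large Maf protein, binds DNA through its bZIP domain and activates crystallin genes, and mouse lenses without Maf fail to elongate their primary fibers. Mafg is a small Maf protein, which has no activation domain of its own and works as a partner of Bach and Nrf proteins. Sox1, of the SoxB1 group, and the homeobox factor Prox1 are both needed for fiber elongation in the mouse, and Prox1 and the zinc finger factor Gata3 are needed there for fiber cells to leave the cell cycle.

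The total count was 13010174 to 21617737 in fiber libraries and 7658794 to 11819117 in epithelium libraries, and the crystallins took 23.3% to 43.9% of it in fiber and 1.66% to 4.28% in epithelium. In 1 library, E18.5 fiber replicate 2, the ribosomal RNA precursor Rn45s took 28.9% of the counts, against 3.98% to 17.45% in the others, and leaving that library out changed no count of members that passed. The tissue labels were checked on marker genes. The summed level of 6 lens fiber markers was 58640 to 159100 CPM (reads per 1e+06 reads, scaled by TMM) in fiber libraries and 950.1 to 1697 CPM in epithelium libraries, and that of 5 lens epithelium markers was 185 to 275 CPM in fiber and 1432 to 2409 CPM in epithelium. Epithelium libraries held more RNA of other eye cells: 6 endothelium markers summed to 10.4 to 36.1 CPM in fiber and 216 to 409 CPM in epithelium, and 6 tested macrophage markers to 1.30 to 4.44 CPM in fiber and 11.4 to 27.8 CPM in epithelium. In these bulk samples, fewer cells of a type and less RNA per cell cannot be told apart.

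Fiber against epithelium asks how strongly each factor marks the differentiated cells. Averaged over the 4 stages, 5 of the 6 genes were higher in fiber by the test used throughout (edgeR quasi-likelihood, adjusted p under 0.05 and at least 2-fold): Hsf4, Maf, Sox1, Mafg and Prox1. Among all genes tested, 15.7% were higher by the same rule. Gata3 differed by 1.35-fold, short of 2-fold (log2 0.43 ± 0.05 SE, edgeR adjusted p = 6.58e-09). The size of the difference thus ran from 44.0-fold for Hsf4 to 2.33-fold for Prox1 among those that passed. Stage by stage, 4 of the 6 passed at E14.5 (14% of all genes were higher) and 4 at E16.5 (14.6%), then 5 at E18.5 (17.4%) and as many at P0.5 (17.5%). Prox1 is the gene that separates the early from the late stages.

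**Figure D1:**
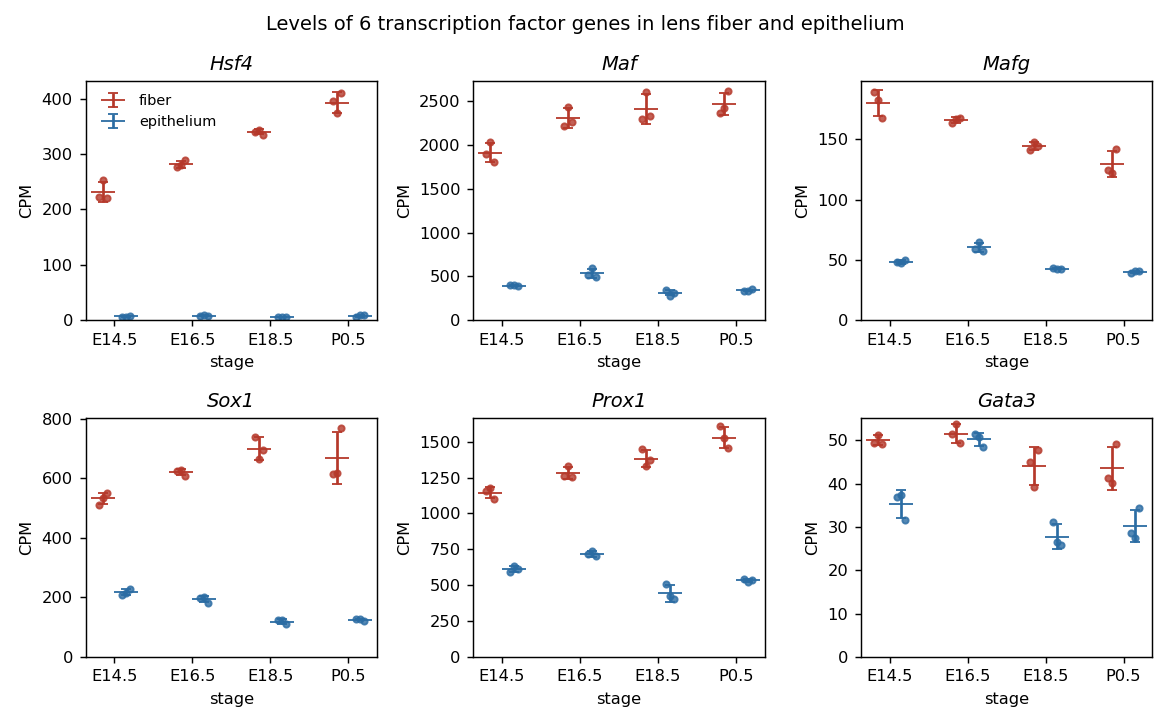
Level (CPM, TMM-scaled) of each factor in every library by stage, fiber in red left of epithelium in blue, with the mean and SD of 3 libraries. With this scaling, fiber libraries lie above epithelium libraries at every stage for 5 genes, and the tissues overlap only for Gata3 at E16.5. The share of all genes separated in this way is not given here.

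Hsf4 separated the tissues most. At E14.5 it stood at 223, 252 and 221 CPM in fiber, against 6.41, 6.14 and 6.96 CPM in epithelium. At P0.5 it stood at 396, 373 and 410.2 CPM in fiber, against 5.99, 8.84 and 8.83 CPM in epithelium. The lowest fiber library was thus far above the highest epithelium library at both stages. Averaged over the stages the log2 difference was 5.46 ± 0.05 SE (edgeR adjusted p = 8.7e-29), with 5.15 at E14.5 and 5.16 at E16.5, then 5.90 at E18.5 and 5.63 at P0.5. In epithelium Hsf4 rested on 62 to 160 counts per library, so its level there was measured with less precision than in fiber, where it had 2589 to 4680. The Hsf4 level in epithelium was 1.67% to 2.81% of that in fiber over the stages. For comparison, the same percentage was 1.57% to 2.83% for Mip, the major membrane channel of fibers, 0.822% to 1.81% for Bfsp1, of the beaded filament, and 0.571% to 1.24% for Crygd. It was above that of Hsf4 at every stage for Lim2, a fiber membrane protein, at 2.49% to 4.7%. No percentage is given for Lgsn, which had 4 counts or fewer in any library at E14.5. The part of fiber RNA in the epithelium counts of Hsf4 was not tested. Hsf4 lies at chromosome 8, 105269801 to 105275845 (GRCm38, plus strand, protein-coding).

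Maf had the highest level in fiber of the 6 genes. At E14.5 it stood at 1902, 2031 and 1809 CPM in fiber, against 399, 396 and 389.9 CPM in epithelium. At P0.5 it stood at 2365, 2427 and 2614 CPM in fiber and at 337, 337 and 350.1 CPM in epithelium, so the libraries of the tissues did not overlap. The averaged log2 difference was 2.55 ± 0.04 SE (5.85-fold, edgeR adjusted p = 5.13e-25). It was 2.28 at E14.5 and 2.11 at E16.5, then 2.95 at E18.5 and 2.85 at P0.5. Maf lies at chromosome 8, 115682942 to 115707794, on the minus strand.

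Mafg was the other bZIP gene that passed. It stood at 189, 183 and 168 CPM in fiber at E14.5, against 48.2, 47.0 and 50.3 CPM in epithelium. At P0.5 it stood at 124, 122 and 142 CPM in fiber, against 39.0, 40.4 and 41.0 CPM in epithelium. The tissues stayed apart, with a log2 difference that was 1.89 at E14.5 and 1.69 at P0.5 (averaged 1.70 ± 0.03 SE, edgeR adjusted p = 3.11e-24). Mafg (chromosome 11, 120625117 to 120633600, minus strand) shares the last 124 bases of its span with the start of Sirt7 on the same strand, and the sources used here do not say how reads there were assigned.

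Sox1 stood at 512, 533 and 551 CPM in fiber at E14.5, against 208, 214 and 228 CPM in epithelium. At P0.5 it stood at 616, 619 and 770.5 CPM in fiber, against 126, 126 and 122 CPM in epithelium. Fiber was thus above epithelium in every library at both stages, with a wider gap at P0.5. The log2 difference was 1.30 ± 0.07 SE at E14.5 and 1.68 at E16.5, then 2.57 at E18.5 and 2.43 ± 0.07 SE at P0.5. Sox1 (chromosome 8, 12395295 to 12400126, plus strand) lies wholly inside the span of the long noncoding transcript Sox1ot, which is not in the count table, so counts of Sox1 may hold reads of both.

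Prox1 was already abundant in epithelium. It stood at 1155, 1174 and 1099 CPM in fiber at E14.5, against 591, 636 and 614 CPM in epithelium. At E18.5 it stood at 1446, 1328 and 1371 CPM in fiber, against 511, 422 and 400.0 CPM in epithelium. The tissues did not overlap at either stage. The log2 difference was 0.90 ± 0.07 SE at E14.5 and 0.83 ± 0.07 SE at E16.5, under 2-fold, but 1.64 at E18.5 and 1.52 at P0.5, where it passed (edgeR adjusted p = 5.69e-16 and 2.06e-15). Lymphatic endothelium also expresses Prox1: 3 of its 4 listed markers were tested and summed to 3.82 to 9.26 CPM in fiber and 59.2 to 124 CPM in epithelium, and their part in the Prox1 level was not tested. Prox1 lies at chromosome 1, 190118035 to 190170714, on the minus strand, where the antisense gene Prox1os overlaps it.

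Gata3 was the lowest in fiber and the least different between the tissues. At E14.5 it stood at 49.4, 51.3 and 49.2 CPM in fiber, against 37.0, 37.5 and 31.7 CPM in epithelium. At E16.5 it stood at 51.6, 53.8 and 49.4 CPM in fiber, against 51.4, 50.8 and 48.6 CPM in epithelium. The tissues overlapped at E16.5 (log2 0.04 ± 0.09 SE, edgeR adjusted p = 0.716), and fiber was above epithelium in all libraries at the other 3 stages, by 0.50 at E14.5, then 0.67 at E18.5 and 0.52 at P0.5. None of these differences reached 2-fold. Gata3 lies at chromosome 2, 9857078 to 9890034, on the minus strand, and 3 other annotated genes, none of them in the count table, overlap its span.

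**Figure D2:**
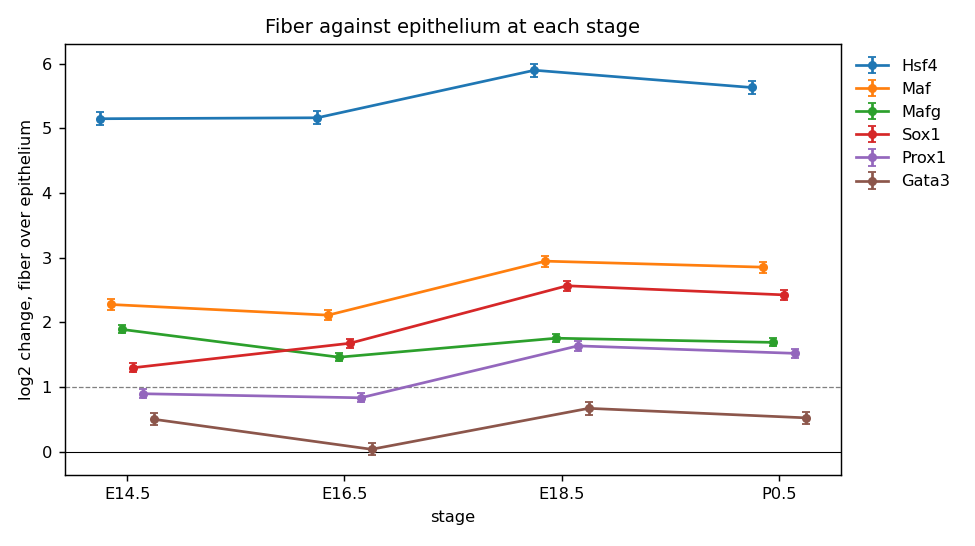
Log2 difference of fiber over epithelium for each factor at each stage, with SE bars from the edgeR fit; the dashed line marks 2-fold. Hsf4 lies above 5 at every stage, Prox1 crosses the line between E16.5 and E18.5, and Gata3 stays below it.

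How many genes lie above or below in fiber depends on the scaling. Over all genes tested the median log2 difference was -0.03 with TMM, -1.23 with library size only, -0.70 with library size after leaving out crystallins, and -0.63 after leaving out crystallins and Rn45s. Among all genes tested, 4.72% were higher and 59.7% lower in fiber with library size only, and 7.08% and 39% with crystallins left out. With library size only, 2 of the 6 genes passed in the averaged comparison, Hsf4 (4.26) and Maf (1.34), and Gata3 turned lower in fiber (-0.77). With crystallins left out of the library size 4 passed, all but Prox1 (0.55) and Gata3 (-0.24). A scaling moves all genes of a comparison by nearly the same amount, so the difference from the median gene is the same under each by construction and is given only as a description: 5.49 for Hsf4, 2.57 to 2.58 for Maf, 2.02 for Sox1, 1.73 for Mafg, 1.25 for Prox1 and 0.46 for Gata3.

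**Figure D3:**
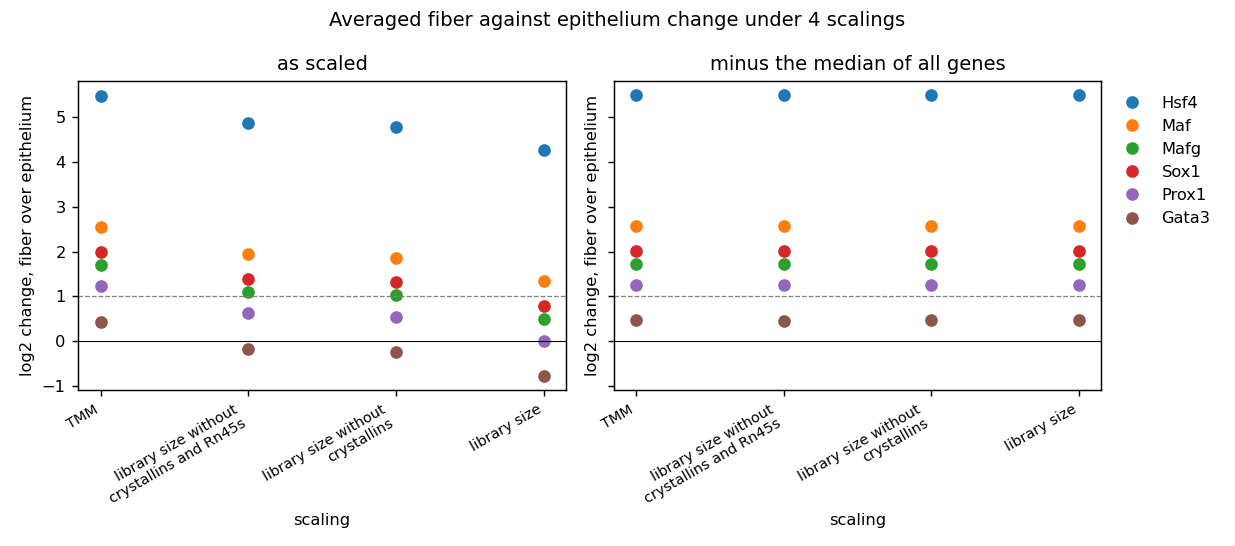
Averaged log2 difference of fiber over epithelium under 4 scalings, as scaled (left) and after subtracting the median of all genes (right); the dashed line marks 2-fold. Left, all 6 genes lie lower under each of the 3 library-size scalings than with TMM; right, the values coincide by construction, at 5.49 for Hsf4 and 0.46 for Gata3.

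Levels were also compared between the 6 genes after division by exon length (CPM per kilobase). Maf led in fiber at every stage, with 232 ± 13.6 CPM per kilobase at E14.5 and 299.6 ± 15.7 at P0.5 (SD, n = 3). Hsf4 and Prox1 came next and overlapped at E14.5 and E16.5, where Hsf4 stood at 132 and 161 and Prox1 at 136 and 153 CPM per kilobase. At E18.5 and later Hsf4 was above Prox1 in every library, at 194 and 224 CPM per kilobase against 165 and 182. Sox1, Mafg and Gata3 followed in this order without overlap. Set among the 12170 genes of known length, Maf ranked 77th, Hsf4 113th, Prox1 129th and Sox1 166th in fiber. In epithelium the order was another: Prox1 led at 52.9 to 85.6 CPM per kilobase, Maf and Sox1 followed, Gata3 and Mafg overlapped at all stages but E16.5, and Hsf4 was last at 3.24 to 4.50, ranking 6784th.

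Relatives of the factors were compared in the same way. Of 16 listed relatives 6 were tested, and averaged over the stages 1 was higher in fiber and 2 were lower (22.2% of all genes were lower). The large Maf gene Mafa was higher (log2 3.84 ± 0.10 SE, edgeR adjusted p = 3.44e-21). The small Maf gene Maff (-1.71) and the SoxB1 gene Sox2, known for its part in lens induction (-1.45), were lower. Hsf1 (-0.12), the regulator of the classical heat shock response, Hsf2 (-0.16) and the small Maf gene Mafk (0.80) did not pass. With library size only 4 of the 6 were lower.

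The share of each factor in its family's counts per kilobase, which no scaling of the libraries can move, was higher in fiber in the 3 families compared. Hsf4 made up 96.3% of the Hsf1, Hsf2 and Hsf4 total in fiber and 35.7% in epithelium, averaged over the stages. Sox1 made up 92.2% of Sox1 plus Sox2 in fiber and 52.8% in epithelium. Mafg made up 88.3% of the small Maf genes (Maff, Mafg, Mafk) in fiber and 69.1% in epithelium. Every fiber library was above every epithelium library of its stage in each family. An exact two-sided permutation test of libraries within stages gave p = 1.25e-05 for each family, the smallest that the 160000 arrangements allow (adjusted p = 1.25e-05 over 3 families). In the SoxB1 family the relative was higher in epithelium: Sox2 stood at 14.6 CPM in fiber and 50.2 CPM in epithelium at E14.5.

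**Figure D4:**
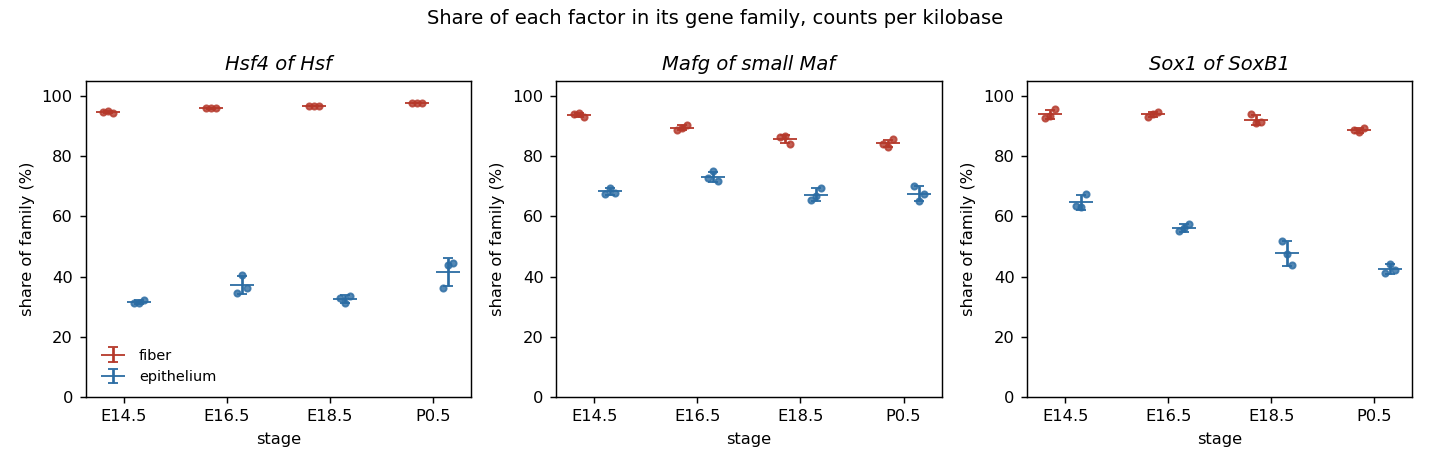
Share of each factor in the counts per kilobase of its gene family, in percent, for every library by stage, fiber in red left of epithelium in blue, with mean and SD of 3 libraries. Hsf4 holds 94.4% to 97.7% of its family in fiber libraries and 31.1% to 44.5% in epithelium libraries, and the Sox1 share in epithelium is 64.7% at E14.5 and 42.5% at P0.5.

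The shares also varied with stage, given here as a description with no test. The Mafg share in fiber was 93.8% ± 0.70 at E14.5 and 89.4% ± 0.84 at E16.5, then 85.7% ± 1.31 at E18.5 and 84.3% ± 1.26 at P0.5 (SD, n = 3). Mafk rose in fiber over this time (log2 1.32 ± 0.12 SE at P0.5 over E14.5, edgeR adjusted p = 2.66e-09; 0.77, under 2-fold, with library size only), to 14.2 CPM at P0.5 against 5.67 CPM at E14.5. The Sox1 share was 93.9% ± 1.52 at E14.5 and 88.7% ± 0.78 at P0.5 in fiber, and 64.7% ± 2.46 and 42.5% ± 1.52 in epithelium. Sox2 rose in fiber (1.30 ± 0.15 SE, edgeR adjusted p = 1.25e-07; 0.76, under 2-fold, with library size only) and differed by 0.52, under 2-fold, in epithelium. Retinal and neural cells also express Sox2, and in epithelium 7 of 7 retina markers and 4 of 4 neuron markers rose at P0.5 over E14.5. Their part in the Sox1 share was not tested.

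Within fiber, the stage comparisons ask whether the factors change as the fibers mature. No member reached 2-fold between any pair of stages compared, although most differed by less. At P0.5 over E14.5, where 11.9% of all genes passed, 0 of 6 did by edgeR or by DESeq2, 5 had an edgeR adjusted p under 0.05 (54.5% of all genes) and all 6 an unadjusted p under 0.05 (59.1% of all genes). Hsf4 was the furthest apart (log2 0.76 ± 0.07 SE, edgeR adjusted p = 9.9e-09), with means of 232, 281, 340.05 and 393 CPM from E14.5 to P0.5. Prox1 (0.42), Maf (0.37) and Sox1 (0.33) were also higher at P0.5, by under 2-fold. Mafg went the other way (-0.47 ± 0.06 SE, edgeR adjusted p = 3.65e-07), with means of 180.0, 166, 145 and 130 CPM, and Gata3 had -0.20 (edgeR adjusted p = 0.0755). With library size only, where the median of all genes is -0.56, Maf, Prox1 and Sox1 turn to -0.18, -0.13 and -0.22 and Mafg reaches 2-fold (-1.02), and the difference from the median gene was 0.78 for Hsf4 and -0.46 for Mafg.

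Between neighbouring stages in fiber, 0 of 6 passed at E16.5 over E14.5 (3.07% of all genes), 0 at E18.5 over E16.5 (2.63%) and 0 at P0.5 over E18.5 (0.539%), by edgeR and by DESeq2. At an unadjusted p under 0.05 the counts were 4 (29.5% of all genes), 4 (33.6%) and 3 (21.8%). Hsf4 was higher at E16.5 than at E14.5 by 0.28 and at E18.5 than at E16.5 by 0.27 (edgeR adjusted p = 0.00978 and 0.00942). With TMM scaling, its 3 libraries did not overlap between any of the stages. The share of all genes separated in this way is not given here. Maf and Sox1 differed at the first step, by 0.27 and 0.22 (edgeR adjusted p = 0.0188 and 0.0307), and Mafg at E18.5 over E16.5 by -0.20 (edgeR adjusted p = 0.0145). These steps depend on the scaling. With library size only, the Hsf4 difference at E18.5 over E16.5 and the Sox1 difference at E16.5 over E14.5 change sign.

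In epithelium all 6 genes were lower at E18.5 than at E16.5, each by under 2-fold, with log2 differences of -0.85 for Gata3, -0.77 for Maf, -0.72 for Sox1, -0.69 for Prox1, -0.50 for Mafg and -0.46 for Hsf4 (edgeR adjusted p = 0.00774 for Hsf4 and 1.28e-06 or lower for the others). None reached 2-fold, by edgeR or DESeq2, where 7.3% of all genes did, and 6 of 6 had an unadjusted p under 0.05 (40.9% of all genes). Maf, for example, stood at 343, 280.0 and 315 CPM at E18.5, against 517, 594 and 490.1 CPM at E16.5. In the same step, markers of other eye tissues were higher in the epithelium libraries: 7 retina markers summed to 136 to 210 CPM at E18.5, against 9.61 to 35.8 CPM at E16.5. Of 7 pigment cell markers 6 were tested and summed to 147 to 173 CPM at E18.5, against 2.09 to 7.27 CPM at E16.5, and 4 neuron markers to 18.7 to 45.6 CPM against 5.36 to 7.42 CPM. Their part in the lower levels of the 6 genes was not tested. Lens epithelium markers summed to 2249 to 2409 CPM at E18.5 and 1653 to 1693 CPM at E16.5, where 1 of the 5 rose and the median log2 difference was 0.047.

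**Figure D5:**
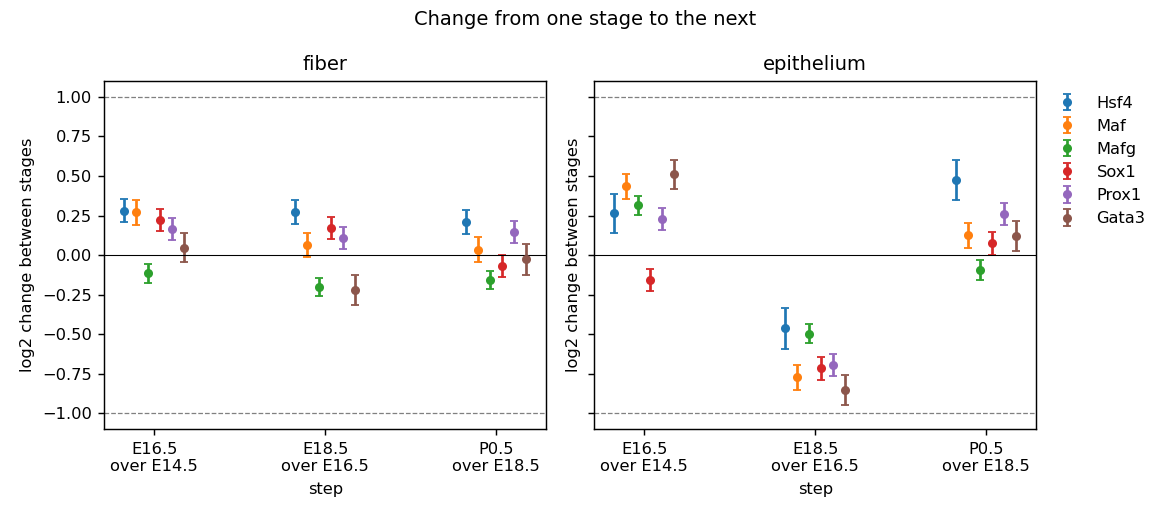
Log2 difference of each stage over the one before it, for each factor in fiber (left) and epithelium (right), with SE bars; dashed lines mark 2-fold. In epithelium all 6 genes lie below 0 at E18.5 over E16.5, from -0.46 for Hsf4 to -0.85 for Gata3; no point reaches 2-fold in either tissue.

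At E16.5 over E14.5 in epithelium, 0 of 6 passed (2.53% of all genes; 0 by DESeq2, and 6 at an unadjusted p under 0.05, as were 34.6% of all genes). Gata3 (0.51), Maf (0.43), Mafg (0.31) and Prox1 (0.23) were higher at E16.5 with an edgeR adjusted p of 0.0221 or lower, and Sox1 had -0.16 (edgeR adjusted p = 0.118). The E16.5 overlap of the tissues in Gata3 goes with this step: Gata3 averaged 50.3 ± 1.48 CPM in E16.5 epithelium, against 35.4 ± 3.21 CPM at E14.5 (SD, n = 3). At P0.5 over E18.5, 0 of 6 passed (1.01% of all genes; 0 by DESeq2, and 2 at an unadjusted p under 0.05, as were 28.4%), and Hsf4 (0.48) and Prox1 (0.26) were higher with an edgeR adjusted p of 0.0148 and 0.0166. At P0.5 over E14.5, 0 of 6 passed (13.3% of all genes; 0 by DESeq2, and 6 at an unadjusted p under 0.05, as were 62.6%). Sox1 was the furthest apart there (-0.80 ± 0.07 SE, edgeR adjusted p = 2.61e-09).

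Whether the fiber to epithelium difference itself changed between P0.5 and E14.5 was tested as an interaction. Sox1 passed at 2-fold: its difference was wider at P0.5 by 1.13 ± 0.10 SE on the log2 scale (edgeR adjusted p = 9.42e-09), and 3.77% of all genes were higher by this rule. It combines a level 0.33 higher in fiber with one 0.80 lower in epithelium. Prox1 (0.62), Maf (0.58) and Hsf4 (0.48) had wider differences at P0.5 by under 2-fold (edgeR adjusted p = 2.66e-05, 0.00023 and 0.00862). Mafg (-0.20) and Gata3 (0.02) did not differ at this threshold (edgeR adjusted p = 0.0616 and 0.908). With library size only the Sox1 value falls under 2-fold (0.48; 0.87 with crystallins left out). Retina, pigment cell and neuron markers were higher at P0.5 than at E14.5 in epithelium libraries as well (7 of 7, 6 of 6 and 4 of 4 tested rose), and their part in these interactions was not tested.

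Genes that these factors are known to act on, or to act with, were taken from lists and counted in the averaged comparison. All 16 crystallins of the list were higher in fiber (15 with library size only), with a median log2 difference of 5.69 and the largest for Crygb (6.87 ± 0.13 SE), though gamma crystallins are so alike in sequence that their counts may be shared. All 12 listed genes of fiber proteins were higher (median 4.49; 11 with library size only), most of all Dnase2b, whose DNase clears the nuclear DNA of fibers and which depends on Hsf4 in the mouse (6.61 ± 0.12 SE). Hspb1, a small heat shock protein, stood at 20.2 ± 3.10 CPM in fiber and 0.527 ± 0.362 CPM in epithelium at P0.5. Of 7 partners of small Maf proteins 5 were tested, and 1 was higher, the repressor gene Bach2 (4.0-fold, edgeR adjusted p = 1.66e-22). That is near the share of all genes that were higher, 15.7%. With library size only, 0 partners were higher and 2 lower. Nfe2l2, which encodes the Nrf2 protein, missed 2-fold (0.96).

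Of 16 antioxidant genes, many of them targets of Nrf2 and small Maf dimers, 5 were higher and 4 lower in fiber, where 15.7% of all genes were higher and 22.2% lower; 4 of 16 is near that share, and the same shares apply to the lists that follow. The heme oxygenase gene Hmox1 was the furthest above (4.90 ± 0.11 SE) and the glutathione transferase gene Gstm1 the furthest below (-2.44 ± 0.05 SE). Of 9 cell cycle exit genes 3 were lower and none higher, by edgeR, at 2-fold. The furthest below was Rbl1, which encodes the pocket protein p107 (-3.05 ± 0.06 SE), while Cdkn1c, known to depend on Prox1 in the mouse lens, missed 2-fold (0.66 ± 0.05 SE, edgeR adjusted p = 1.9e-12). Of 9 early lens factors 6 were lower, Foxe3, a factor of the lens epithelium, most (-3.80 ± 0.11 SE). Of 7 tested receptors for fiber-inducing signals 2 were higher, Bmpr1b most (3.15 ± 0.10 SE), and Acvr1 was lower (-1.69 ± 0.05 SE). The median of these lists was 0.43 for the antioxidant genes, 0.14 for cell cycle exit, 0.28 for partners and 0.47 for receptors, and each turns negative with library size only.

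In fiber at P0.5 over E14.5, where no member passed, 15 of 16 crystallins (median 1.59) and 7 of 12 fiber protein genes (median 1.38) rose, where 6.69% of all genes did. With library size only 8 crystallins and 6 fiber protein genes rose. Crybb2 stood at 1175 to 2603 CPM at P0.5, against 3.25 to 3.63 CPM at E14.5 (log2 9.16 ± 0.48 SE, edgeR adjusted p = 2.83e-13). Hspb1 stood at 18.2 to 23.8 CPM at P0.5, against 0.530 to 0.748 CPM at E14.5 (4.96 ± 0.25 SE). Hmox1 led the 4 antioxidant genes that rose (2.95 ± 0.17 SE; 1 rose with library size only), while Nfe2l2 fell (-1.25 ± 0.07 SE). The median of the 6 factors was 0.35 and that of all genes -0.02.

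Genes with the profile most like each factor were ranked by Pearson r of log2 CPM over the 24 libraries, among 8392 genes with a mean of at least 10 CPM. The 24 points share the tissue difference, which sets most of r, so r within the 12 libraries of each tissue is given too, for all or some of the genes named, as a description. For Hsf4 the closest were Gss, Lim2, Tdrd7, Synm and Mip (r 0.998 to 0.999; 0.95 to 0.98 within fiber, 0.74 to 0.89 within epithelium). For Maf, Mboat1, Epb41l4a, Epb41l3 and Ptpru were among the 5 closest (0.994 to 0.998), of which Mboat1 followed Maf within both tissues (0.89 in fiber, 0.94 in epithelium) and Epb41l4a less so within fiber (0.38). For Mafg, Map6, Fam49b, Nyap1 and Igsf9 were among the 5 closest (0.988 to 0.991; 0.77 to 0.96 within fiber, 0.72 to 0.85 within epithelium). For Sox1 they were Zfp385a, Smarcc1, Hbs1l, Cct8 and Cct3 (0.992 to 0.995; 0.65 to 0.86 within fiber, 0.92 to 0.98 within epithelium). For Prox1 they were Bcar3, Sall1, Msi1, Ankrd40 and Rnf113a1 (0.982 to 0.988; 0.80 to 0.93 within fiber, 0.83 to 0.92 within epithelium). For Gata3 no gene came as close: Col13a1, Sox13, Aak1, Nap1l1 and Cdh2 had r of 0.869 to 0.883, and Cdh2 ran against Gata3 within fiber (-0.50).

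Promoters of the crystallin and fiber protein genes, which were higher in fiber like the factors, were searched for short motifs of the factors in the 250 bases before the RefSeq start, on both strands. The motifs were the Maf half-site TGCTGA and a heat shock element of GAANNTTC or TTCNNGAA, with N for any base. The Maf half-site was in 10 of 15 crystallin promoters (66.7%) and 5 of 14 fiber protein promoters (35.7%), and in 16.1% of all 32851 promoters. The heat shock element was in 1 of 15 (6.67%) and 3 of 14 (21.4%), and in 12.8% of all promoters. A match is a description of the letters and not a binding site. These sequences are printed 5′ to 3′ on the strand of the gene (RefSeq, GRCm38.p6), with matches in capitals. The first pair shows the Maf half-site in crystallin promoters, at -182, -135 and -77 in Cryba4 and at -84 in Crybb1.
Cryba4 (chr5:112252519-112252768, minus strand): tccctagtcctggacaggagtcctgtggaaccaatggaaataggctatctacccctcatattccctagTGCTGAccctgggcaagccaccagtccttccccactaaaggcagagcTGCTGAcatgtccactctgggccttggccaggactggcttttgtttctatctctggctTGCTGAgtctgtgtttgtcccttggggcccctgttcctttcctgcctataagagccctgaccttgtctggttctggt
Crybb1 (chr5:112255570-112255819, plus strand): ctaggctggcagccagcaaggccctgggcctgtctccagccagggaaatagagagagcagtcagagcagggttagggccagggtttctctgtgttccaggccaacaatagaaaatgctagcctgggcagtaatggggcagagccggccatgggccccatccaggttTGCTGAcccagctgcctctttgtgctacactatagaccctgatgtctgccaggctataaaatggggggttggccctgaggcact
Cryba4 was higher in fiber by 6.47 on the log2 scale, averaged over the stages, and Crybb1 by 5.79.

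The next promoters show the heat shock element in genes of the fiber protein list, at -117 and -97 in Hspb1 and at -230 in Dnase2b.
Hspb1 (chr5:135887669-135887918, plus strand): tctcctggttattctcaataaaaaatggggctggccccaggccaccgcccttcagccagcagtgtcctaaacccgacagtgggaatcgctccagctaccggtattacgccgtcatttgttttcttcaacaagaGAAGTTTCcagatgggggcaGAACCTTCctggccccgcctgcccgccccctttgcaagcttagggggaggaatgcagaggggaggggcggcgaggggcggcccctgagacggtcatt
Dnase2b (chr3:146615599-146615848, minus strand): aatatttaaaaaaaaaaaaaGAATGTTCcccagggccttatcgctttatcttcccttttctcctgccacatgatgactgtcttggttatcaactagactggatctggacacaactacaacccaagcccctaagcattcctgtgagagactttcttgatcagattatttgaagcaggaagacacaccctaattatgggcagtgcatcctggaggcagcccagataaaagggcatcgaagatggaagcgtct
Both genes rose in fiber at P0.5 over E14.5, by 4.96 for Hspb1 and 2.34 for Dnase2b on the log2 scale. The element was also at -52 in a promoter of Tdrd7, whose change over these stages is not given here. A rise was not particular to genes with the element. In the same comparison 7 of 12 fiber protein genes and 15 of 16 crystallins rose, and 1 of 15 crystallin promoters held it. A link between the element and the rise was not tested.

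Among the factors themselves, 5 promoters of 4 genes (Mafg, Sox1, Prox1 and Gata3) could be searched. A Maf half-site was found at -90 in Gata3 and a heat shock element at -56 in Mafg, and no other match of these motifs. Each motif was thus in 1 of 5 promoters (20%), beside 16.1% of all promoters for the Maf half-site and 12.8% for the heat shock element. With 5 promoters these shares cannot be told apart.
Gata3 (chr2:9878601-9878850, minus strand): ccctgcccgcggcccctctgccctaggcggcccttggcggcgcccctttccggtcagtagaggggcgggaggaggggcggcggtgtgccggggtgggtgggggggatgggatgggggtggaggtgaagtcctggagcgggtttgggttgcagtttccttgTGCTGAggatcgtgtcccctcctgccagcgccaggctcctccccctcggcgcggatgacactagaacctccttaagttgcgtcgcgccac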

How the data were processed

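The deposited table holds whole-number counts per gene, 1 column per library, which the authors did not normalize, per the file headers and the values. Per the labels, ribosomal RNA was depleted and libraries were stranded. Per the submitters' processing notes, the build was mm10 and the tools were HTSeq 0.6.1, TopHat2 2.0.13, Trim Galore 0.4.1, Cufflinks 2.2.1 and Cuffdiff. The sources used here do not give the strand setting of counting or how the 12611 genes were selected. Of the gene symbols 12340 (97.9%) matched 1 gene of GENCODE M21, from which coordinates and exon lengths come.

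All 24 libraries entered 1 fit of 8 group means in edgeR 4.0.16 (R 4.3.3): filterByExpr (minimum count 10, minimum total count 15; 184 genes removed), TMM scaling, quasi-likelihood test with 16 residual degrees of freedom, and a biological coefficient of variation of 0.0821. P-values are two-sided and Benjamini-Hochberg adjusted over all genes tested. A gene passed, and is said to have risen or fallen, at an adjusted p under 0.05 and at least 2-fold. SE of a log2 change is its size over the square root of F. Errors of CPM are SD over 3 libraries. The scripts were tested on simulated data. Replicates were not copies: chi-square per degree of freedom between them was 3.74 to 304, the highest with E18.5 fiber replicate 2, in which Rn45s took 28.9% of the counts (3.98% to 17.45% elsewhere). Family shares are counts per kilobase within a library, tested by exact permutation within stages. Named list genes are those with the largest change each way among those that passed, and others that are named were chosen after their values were seen. The 6 genes and the lists were chosen with earlier results of these data known. Alternatives were other scalings, no filter, DESeq2 1.42.0, replicate blocks and leaving out each library. Promoter sequences come from RefSeq; Hsf4 and Maf were not searched. A relative, a family share and some of the closest genes are not reported here.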

Additional observations from a re-analysis of the deposited data

Results flagged for a closer look

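The fiber to epithelium difference at P0.5 was set against that at E14.5 by the interaction test (edgeR quasi-likelihood, Benjamini-Hochberg adjusted over all genes). Only Sox1 of the 6 factors passed at 2-fold, where 3.77% of all genes were higher. Prox1, Maf and Hsf4 had an adjusted p under 0.05 by less than 2-fold. The share of all genes at that looser threshold is not given here. The log2 difference was wider at P0.5 by 1.13 for Sox1 (adjusted p = 9.42e-09), 0.62 for Prox1 (adjusted p = 2.66e-05), 0.58 for Maf (adjusted p = 0.00023) and 0.48 for Hsf4 (adjusted p = 0.00862). With TMM scaling, every fiber library was above every epithelium library of its stage for these 4 genes at both stages. The share of all genes separated in this way is not given here. For Prox1, Maf and Hsf4 the sign depends on the scaling, with values of -0.014, -0.062 and -0.16 with library size only, where the median of all genes is -0.68.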

How the results depend on the processing

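Members that passed and their directions were the same under DESeq2 size factors, crystallins or Rn45s left out before TMM, no filter and DESeq2. The gene list counts were the same under these settings other than DESeq2, for which they were not computed, and the scaling was the choice that moved them. The labels do not say whether same-numbered fiber and epithelium libraries come from the same animals. Of 12 same-numbered pairs 3 had a correlation above 0.1 (range -0.07 to 0.22), and 7 of 12 fiber libraries correlated best with their own number. These values do not settle whether the numbers mark pairs. The main fit took none, because the labels name none. A replicate block within stages or over all groups changed no count of members that passed: 5 in the averaged comparison, 4, 4, 5 and 5 by stage, and 1 in the interaction. Stage comparisons could not be estimated with the block within stages. The block over all groups and both library sizes without crystallins were chosen after seeing the data.

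With library size only, 3 members were higher in fiber at E14.5, 2 at E16.5, where Gata3 was lower by over 2-fold, 3 at E18.5, 2 at P0.5 and 2 averaged, and 1 passed in fiber at P0.5 over E14.5 and 0 in the interaction. Shares of all genes under this scaling are given above for the averaged comparison only. The other counts are thus a description with no share beside them. Gata3 reversed to -0.31, -1.04, -0.80 and -0.93 from E14.5 to P0.5 and -0.77 averaged, and Prox1 to -0.25 at E16.5. In fiber at E16.5 over E14.5, Gata3 reversed to -0.18, Prox1 to -0.066 and Sox1 to -0.0085. At E18.5 over E16.5, Hsf4 reversed to -0.095, Maf to -0.31, Prox1 to -0.25 and Sox1 to -0.19. At P0.5 over E18.5 Gata3 was 0.0045, and at P0.5 over E14.5 Maf was -0.18, Prox1 -0.13 and Sox1 -0.22. In the interaction Gata3 was -0.61, Hsf4 -0.16, Maf -0.062 and Prox1 -0.014. Of the lists, 4 relatives were lower, 0 small Maf partners higher and 2 lower (median -0.92), 5 cell cycle exit genes lower (-1.07), 7 antioxidant genes lower (-0.78), and 1 receptor higher and 3 lower (-0.73).

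With library size without crystallins, 3 members passed at every stage, 4 averaged and 0 in the interaction. A share of all genes under this scaling is given above for the averaged comparison only, so the other counts are a description. Gata3 reversed to -0.63 at E16.5, -0.23 at E18.5, -0.16 at P0.5 and -0.24 averaged. In fiber, Gata3 (-0.13) and Prox1 (-0.014) reversed at E16.5 over E14.5, Maf (-0.16), Prox1 (-0.10) and Sox1 (-0.033) at E18.5 over E16.5, and Gata3 (0.21), Mafg (0.095) and Sox1 (0.17) at P0.5 over E18.5. Gata3 was -0.23 in the interaction. With Rn45s left out as well, 3 members passed at E14.5 and also 3 at E16.5, while 4 passed at E18.5, 4 at P0.5 and 4 averaged. No share of all genes stands beside these counts. Gata3 then reversed to -0.013 at E14.5, -0.53 at E16.5, -0.14 at P0.5 and -0.17 averaged. It also reversed to -0.035 in fiber at E16.5 over E14.5 and to -0.12 in the interaction, where 0 members passed. Maf reversed to -0.022 in fiber at E18.5 over E16.5. List medians under these 2 settings were -0.39 and -0.32 for small Maf partners (1 lower in each), -0.54 and -0.46 for cell cycle exit, -0.24 and -0.17 for antioxidant genes and -0.20 and -0.13 for receptors. The cause of each reversal was not tested beyond the shift of all genes.

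Leaving out each library in turn changed no count of members that passed. Directions changed for differences near 0: Gata3 in fiber at P0.5 over E18.5 (-0.12 to 0.038), Maf in the same step (-0.0093 to 0.093) and Gata3 in the interaction (-0.074 to 0.13). With 3 libraries a group, differences between stages as small as those of Gata3 and Maf are near the limit of what these data separate, and Hsf4 in epithelium rests on 62 to 160 counts a library.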

Other observations

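Motifs of the other factors were counted in the same promoters. The Sox motif AACAAT was in 3 of 15 crystallin promoters (20%), those of Crygd, Crybb1 and Crygs, in 0 of 14 fiber protein promoters and in 9.42% of all promoters. The Gata motif AGATAA was in 1 of 15 crystallin promoters (6.67%), that of Crygf, in 3 of 14 fiber protein promoters (21.4%), those of Lgsn, Bfsp1 and Dnase2b, and in 9.99% of all promoters. No match of 1 motif overlapped a match of another in these lists. The Maf half-site was in 1 of 19 promoters of the antioxidant genes (5.26%), 4 of 10 of the small Maf partners (40.0%) and 0 of 10 of the early lens factors. It was also in 4 of 9 promoters of the cell cycle exit genes, none of which was higher in fiber by edgeR at 2-fold. Among receptors it was in 3 of 10 promoters, and among relatives in 2 of 15. A link between the half-site and the level in fiber was not tested.

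Lgsn, a gene of the fiber protein list, stood at 3.54 to 62.4 CPM over 3 fiber libraries at E18.5, against 0.532 to 0.854 CPM in epithelium.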
